A study of Mus musculus with 6 samples.

Results

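The variable segments of the immunoglobulin heavy chain, whose symbols start with Ighv, were described in lacrimal gland RNA of 2 mouse strains. The deposited table listed 185 such segments among 55401 genes. The 92 described here were chosen by their counts, at least 12 when summed over the 6 libraries. That rule used the counts of both strains together, so the presence of counts in these segments is no finding. Of the 93 segments left out, 78 were at 0 in every library and 15 held 1 to 11 counts, which came to 85 counts in all against 12793 in the members. Just inside the threshold were Ighv1-70 with 12 summed counts, Ighv1-62-3 with 13 and Ighv1-36 with 14. Just outside it were Ighv1-49 with 11 and Ighv7-4 and Ighv2-4 with 10 each. The annotation classed 88 members as V genes and 4 as V pseudogenes, namely Ighv1-14, Ighv1-62, Ighv1-38 and Ighv1-70.

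The lacrimal gland makes the watery part of the tear film. RNA of 3 NOD/Ltj samples and 3 ICR samples was compared, with 1 polyadenylated RNA library each. NOD/Ltj is an inbred strain that develops autoimmune inflammation of tear and salivary glands, and ICR is an outbred stock that served as the control. No age, sex or treatment is given in the labels, nor whether each sample came from 1 animal. A p-value here speaks for the spread among 3 libraries a strain, which may be technical. The same holds for every other spread given here, and a gland below means the sample of 1 library. The libraries held 62318534 to 64000969 estimated counts in NOD/Ltj and 58426580 to 76554340 in ICR, of which the 92 segments took 0.00264 to 0.00554% in NOD/Ltj and 0.000366 to 0.00480% in ICR. About 4 counts stood for 1 fragment at low values, so the floor that a count of 0 allows, 3 fragments, was 12 counts or 0.149 to 0.222 CPM (counts scaled to library size). Of 6 markers of lacrimal acinar cells, 1 fell in NOD/Ltj (Prol1, log2 fold change −4.95, edgeR adjusted p = 0.0160) and 5 were not called, with a list median of −1.59. Together the 6 summed to 124399, 83915 and 112126 CPM in NOD/Ltj and 118562, 183120 and 139861 CPM in ICR. The summed level of 4 salivary gland genes, one of which (Smgc) was at 0 throughout, was 41.1, 1786 and 59.9 CPM in NOD/Ltj and 423, 1044 and 10741 CPM in ICR, highest in ICR 3. Its part in the results below was not tested.

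Each B cell builds its heavy chain gene by joining a V, a D and a J segment on chromosome 12, and the joined V exon encodes most of the part that binds antigen. Descendants of 1 B cell share that choice of V segment, and in activated B cells the joined V exon can also gain point mutations. Plasma cells secrete antibody and hold far more heavy chain RNA than resting B cells, and those of the lacrimal gland mostly make IgA, which is carried into tears. The V segments are sorted into families by sequence likeness, and the number after Ighv names the family. In RNA from whole tissue, fewer cells of a type and less RNA per cell cannot be told apart.

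The reference sequences of 4 much used members are shown: the 2 of highest mean CPM in NOD/Ltj (Ighv3-6 and Ighv1-26), the highest in ICR (Ighv5-16) and the most used of ICR 1 (Ighv1-14). They are given with their nearest relatives, because reads of 150 bases have to tell such pairs apart. Each line gives the first 300 bases of exon 2, the V exon, in GENCODE release M21 of mouse genome build GRCm38, from 5′ to 3′ on the minus strand of chromosome 12. Capitals mark bases that differ between the pair. Ighv3-6 (exon at chr12:114288152-114288458) and Ighv3-1 (chr12:113964388-113964694) share 93.5% of their bases and differ at 20.
Ighv3-6: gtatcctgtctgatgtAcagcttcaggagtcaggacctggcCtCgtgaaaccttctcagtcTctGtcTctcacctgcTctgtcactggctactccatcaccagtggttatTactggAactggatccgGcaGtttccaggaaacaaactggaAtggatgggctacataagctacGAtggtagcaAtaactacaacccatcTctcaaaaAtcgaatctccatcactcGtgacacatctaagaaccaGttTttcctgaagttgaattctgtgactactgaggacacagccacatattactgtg
Ighv3-1: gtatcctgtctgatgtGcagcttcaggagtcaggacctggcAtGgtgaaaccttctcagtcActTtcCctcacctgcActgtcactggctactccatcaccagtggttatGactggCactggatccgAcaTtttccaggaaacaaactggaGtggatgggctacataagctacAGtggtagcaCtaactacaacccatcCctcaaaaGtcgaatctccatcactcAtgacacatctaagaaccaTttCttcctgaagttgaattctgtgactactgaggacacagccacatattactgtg
Ighv1-26 (chr12:114788372-114788676) and Ighv1-18 (chr12:114682632-114682936) share 97.4% and differ at 8 bases.
Ighv1-26: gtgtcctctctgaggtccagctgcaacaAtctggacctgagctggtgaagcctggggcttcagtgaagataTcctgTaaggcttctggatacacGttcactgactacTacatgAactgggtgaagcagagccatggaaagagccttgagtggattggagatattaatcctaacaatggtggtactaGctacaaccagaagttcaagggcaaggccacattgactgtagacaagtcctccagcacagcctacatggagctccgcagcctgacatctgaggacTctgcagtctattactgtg
Ighv1-18: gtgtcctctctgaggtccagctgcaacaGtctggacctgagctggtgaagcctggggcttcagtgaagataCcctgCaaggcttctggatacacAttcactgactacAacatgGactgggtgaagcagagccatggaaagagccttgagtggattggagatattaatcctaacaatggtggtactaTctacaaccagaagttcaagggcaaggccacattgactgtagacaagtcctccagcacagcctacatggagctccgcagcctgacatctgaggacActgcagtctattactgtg
Ighv5-16 (chr12:113838526-113838832) and Ighv5-12 (chr12:113702124-113702430) share 86.6%, with 40 differences in the stretch shown, and their fold changes between the strains had opposite signs with all libraries.
Ighv5-16: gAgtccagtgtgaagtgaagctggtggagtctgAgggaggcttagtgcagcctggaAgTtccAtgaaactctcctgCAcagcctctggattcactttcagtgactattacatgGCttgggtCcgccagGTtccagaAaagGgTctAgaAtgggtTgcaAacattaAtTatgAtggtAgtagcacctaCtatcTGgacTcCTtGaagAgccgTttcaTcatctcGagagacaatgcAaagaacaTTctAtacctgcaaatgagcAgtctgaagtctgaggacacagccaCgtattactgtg
Ighv5-12: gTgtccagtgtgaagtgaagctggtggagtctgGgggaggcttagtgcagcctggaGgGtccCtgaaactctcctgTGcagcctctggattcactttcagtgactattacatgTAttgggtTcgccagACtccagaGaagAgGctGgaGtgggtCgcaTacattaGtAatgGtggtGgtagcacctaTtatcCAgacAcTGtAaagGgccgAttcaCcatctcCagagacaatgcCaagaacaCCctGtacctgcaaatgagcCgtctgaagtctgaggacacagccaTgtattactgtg
Ighv1-14 (chr12:114646572-114646876), an annotated pseudogene, and Ighv1-83 (chr12:115963817-115964121), a pseudogene at 0 in every library, share 90.8% and differ at 28 bases.
Ighv1-14: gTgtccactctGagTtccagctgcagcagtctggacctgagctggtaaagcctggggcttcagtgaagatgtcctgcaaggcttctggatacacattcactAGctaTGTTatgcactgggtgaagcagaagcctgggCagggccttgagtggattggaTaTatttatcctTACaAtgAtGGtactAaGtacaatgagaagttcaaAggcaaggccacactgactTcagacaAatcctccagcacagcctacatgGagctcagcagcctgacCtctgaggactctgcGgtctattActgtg
Ighv1-83: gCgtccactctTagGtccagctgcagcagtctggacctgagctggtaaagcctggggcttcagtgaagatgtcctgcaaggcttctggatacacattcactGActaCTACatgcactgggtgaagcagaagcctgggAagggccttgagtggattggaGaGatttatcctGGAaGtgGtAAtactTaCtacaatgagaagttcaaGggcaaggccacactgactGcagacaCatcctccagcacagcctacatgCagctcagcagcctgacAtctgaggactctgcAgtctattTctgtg

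Likeness of this kind was common. The median member shared 95.4% of its V exon with its nearest segment (range 74.1 to 100%), and 53 of the 92 members had a relative at 95% or more. Even so, every stretch of 150 bases in the annotated transcripts of 87 members occurred in no other gene. The exceptions were Ighv1-71 and Ighv1-62-2, whose V exons are identical and which had 3.8 and 11.8% of their stretches to themselves, and Ighv1-72, Ighv1-62-3 and Ighv2-2, with 71.3, 72.3 and 94.6%. Counts of these 5 are therefore the least certain. The check used exact matches among reference sequences. It cannot show that reads of other alleles or of mutated V exons were told apart, also for the 87. The reference genome is of another strain, and which segments NOD/Ltj and ICR carry was not analysed here.

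Ighv RNA was found in all 6 glands, and it varied more among the ICR glands than among the NOD/Ltj glands. The 92 members summed to 3492, 2992 and 1643 counts in NOD/Ltj, against 214, 3676 and 776 counts in ICR. After TMM scaling (edgeR's scaling of library sizes) this was 64.7, 37.3 and 24.9 CPM in NOD/Ltj and 3.09, 59.4 and 13.6 CPM in ICR. The strains overlapped, since ICR 2 stood above 2 of the 3 NOD/Ltj glands. The highest gland had 2.60 times the lowest within NOD/Ltj and 19.2 times within ICR. The mean was 42.3 ± 20.4 CPM in NOD/Ltj and 25.3 ± 29.9 CPM in ICR (SD, n = 3 each), a ratio of 1.67, which became 5.08 without ICR 2. Means of single segments below carry the same dependence on ICR 2, which had the highest level of the 3 ICR libraries in 77 of the 87 members with counts in ICR.

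**Figure D1:**
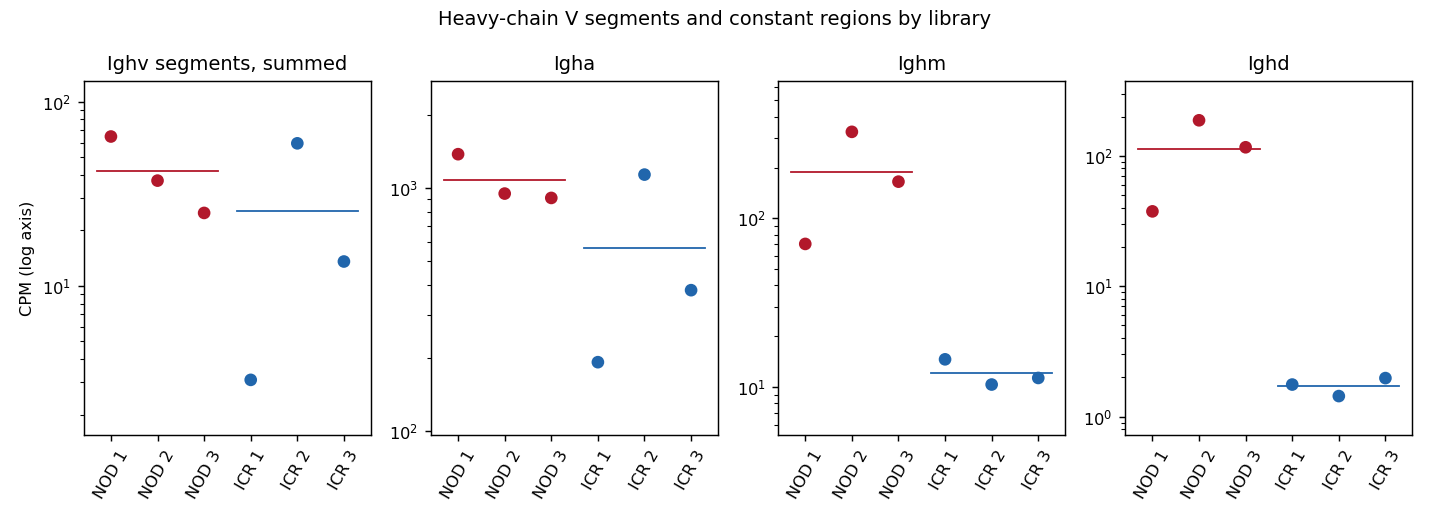
Summed CPM of the 92 Ighv segments and CPM of the constant regions Igha, Ighm and Ighd in each library (log axes; points are libraries, NOD/Ltj in red and ICR in blue, lines are group means). The Ighv sum and Igha overlapped between the strains, at 24.9 to 64.7 CPM in NOD/Ltj and 3.09 to 59.4 CPM in ICR for the segments, while Ighm and Ighd were higher in all 3 NOD/Ltj glands.

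The Ighv sum had the same order of libraries as Igha, the constant region of IgA, in both strains. Igha stood at 1378, 949 and 910 CPM in NOD/Ltj and 192, 1136 and 380 CPM in ICR, with a log2 fold change of 0.92 ± 0.61 (SE, edgeR adjusted p = 0.609). Per 100 CPM of Igha there were 4.69, 3.93 and 2.73 CPM of Ighv in NOD/Ltj and 1.61, 5.23 and 3.57 CPM in ICR, which overlapped. Igkc, the κ light chain constant region, was also not called, at 2100, 1896 and 1664 CPM in NOD/Ltj and 198, 1619 and 548 CPM in ICR (adjusted p = 0.513). The constant regions of the receptors that naive B cells carry behaved otherwise. Ighm, the constant region of IgM, had 70.5, 325 and 165 CPM in NOD/Ltj and 14.6, 10.4 and 11.3 CPM in ICR (log2 fold change 3.95 ± 0.55 SE, adjusted p = 0.0160). Ighd, that of IgD, had 37.5, 187 and 116 CPM in NOD/Ltj and 1.76, 1.44 and 1.98 CPM in ICR (log2 fold change 6.04 ± 0.62 SE, adjusted p = 0.0102). NOD 2, the gland with the most Ighm and Ighd, did not have the most Ighv. Per 100 CPM of Ighm there were 91.7, 11.5 and 15.1 CPM of Ighv in NOD/Ltj and 21.2, 573 and 120 CPM in ICR, an overlapping range. Igha made up 85.4, 55.3 and 64.9% of constant region CPM in NOD/Ltj and 90.8, 89.2 and 93.3% in ICR, groups that did not overlap.

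The genes that travel with Ighv in B-lineage cells were read from lists. Of 8 constant regions, 2 rose in NOD/Ltj, Ighm and Ighd, and 6 were not called (median log2 fold change 2.45, against −0.03 over all 18537 genes tested). Ighg2c, an IgG constant region, had a log2 fold change of 2.72 ± 1.09 (SE, adjusted p = 0.352). The 4 joining segments were not called (median 0.69), and their sum was 9.59, 5.23 and 4.27 CPM in NOD/Ltj and 0.997, 8.50 and 2.53 CPM in ICR. Among 8 B cell markers 7 rose (median 6.17), with summed levels of 116, 488 and 327 CPM in NOD/Ltj and 3.16, 6.17 and 6.50 CPM in ICR. None of 8 plasma cell markers was called by edgeR or had an unadjusted p under 0.05 (median 0.32), with sums of 1075, 965 and 936 CPM in NOD/Ltj and 512, 1082 and 642 CPM in ICR. Of these sums Xbp1 gave 427, 357 and 402 CPM in NOD/Ltj and 272, 305 and 355 CPM in ICR. Xbp1 varied less than Jchain, and which cells it came from was not tested. Jchain, which links IgA and IgM into polymers, had 517, 455 and 395 CPM in NOD/Ltj and 126, 500 and 104 CPM in ICR. Mzb1, a chaperone of antibody assembly, had 5.56, 9.09 and 7.74 CPM in NOD/Ltj and 0.491, 7.45 and 1.99 CPM in ICR. Among the ICR glands both were highest in ICR 2, as were Sdc1, Derl3, Tnfrsf17 and the Ighv sum, while Irf4 was highest in ICR 1 and Prdm1 and Xbp1 in ICR 3. The part that B cell and plasma cell content had in the Ighv values was not tested.

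Genes that join the V segments gave almost no counts. Rag1 and Rag2, which cut DNA for V(D)J joining, were at 0 in all 6 libraries, and Dntt, which adds bases at the joints, had counts in ICR 3 alone (16). The 3 transcription factor genes of the octamer element in V promoters were not called. The log2 fold change was 2.73 ± 0.57 (SE, adjusted p = 0.0609) for Pou2f2, which is enriched in B cells, and 2.39 ± 0.58 (SE, adjusted p = 0.103) for Pou2af1, the B cell coactivator. Pou2f1, the ubiquitous member, had 0.04 ± 0.18 (SE, adjusted p = 0.960). Of 4 tested germinal centre genes none was called (median 0.66), while 3 of 6 T cell markers rose (median 4.35).

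No single V segment was called between the strains. In edgeR's quasi-likelihood test over 18537 genes, 349 genes rose and 67 fell in NOD/Ltj (adjusted p under 0.05), which is 2.24% of the genes tested. The low-count filter kept 56 of the 92 members, and 0 of these were called. At an unadjusted p under 0.05 there was 1 of the 56, Ighv1-47, against 2420 of all 18537 genes. DESeq2 called 0 as well, with 2 members given no adjusted p. Of the 56, 44 had a positive and 12 a negative log2 fold change (median 1.14). Over all 92 without the filter, the mean level was higher in NOD/Ltj for 64 and in ICR for 28, again with 0 called. At an unadjusted p under 0.05 there were 5 of the 92, against 2871 of 29367 genes. The smallest adjusted p of a member was 0.229 among the 56 of the filtered edgeR fit, 0.109 without the filter and 0.114 with DESeq2. Without ICR 2, 60 members passed the filter, 55 of them with a positive log2 fold change (median 3.20). Of these 60, 25 had an unadjusted p under 0.05, against 2405 of 19406 genes. In that fit 0 members were called, with a smallest adjusted p of 0.077. Leaving out each other library in turn gave medians from 0.456 (without NOD 1) to 1.12 (without NOD 2). The members at an unadjusted p under 0.05 were then 1 of 63 without NOD 1, 2 of 67 without NOD 2 and 4 of 69 without NOD 3. They were 3 of 70 without ICR 1 and 5 of 70 without ICR 3, so the higher number was seen only without ICR 2. Standard errors of the 10 leading members of each strain were 0.93 to 1.70 on the log2 scale, so differences of several-fold could go uncalled at this depth.

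Of the 56 tested members 7 (12.5%) were higher in all 3 NOD/Ltj libraries than in any ICR library, against 11.2% of all genes tested. In the other direction it was 0 of 56, against 8.89%. That 0 cannot be read against the 8.89%. A member at 0 in ICR 1, as 70 members were before the filter, cannot be lower in NOD/Ltj without overlap. Ighv1-14 was lower in NOD/Ltj without overlap but did not pass the filter. It had 0, 0 and 0 counts in NOD/Ltj and 34, 42 and 6 in ICR. Also outside the filter, Ighv2-5, Ighv1-77 and Ighv1-38 were higher in NOD/Ltj without overlap. Ighv2-5 had 25, 10 and 21 counts there, Ighv1-77 had 7, 15 and 4, and Ighv1-38 had 4, 5 and 3. In ICR the only counts among them were 2 of Ighv1-38 in ICR 2. Among the 56, the share of members higher in NOD/Ltj without overlap was near the background. That nearness cannot be read either, since a member at 0 in ICR 1 has only ICR 2 and ICR 3 to exceed. The 7 members were Ighv4-1, Ighv6-6, Ighv3-6, Ighv5-12, Ighv2-6, Ighv7-1 and Ighv1-47. All but Ighv1-47 were at 0 in ICR 1, which held 214 Ighv counts. Ighv1-47 had 41, 44 and 19 counts in NOD/Ltj and 8, 11 and 5 counts in ICR, or 0.759, 0.548 and 0.288 CPM and 0.116, 0.178 and 0.0874 CPM, with a log2 fold change of 2.05 ± 0.66 (SE, adjusted p = 0.229). Its ICR levels were at or under the floor of 12 counts. Ighv4-1, the sole member of its family, had 48, 18 and 26 counts in NOD/Ltj and 0, 0 and 9 in ICR (log2 fold change 3.25 ± 1.41 SE, adjusted p = 0.389). Ighv6-6 had 16, 17 and 61 counts in NOD/Ltj and 0, 12 and 0 in ICR (log2 fold change 2.85 ± 1.45 SE, adjusted p = 0.481).

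Ighv3-6 was the most used segment of all 3 NOD/Ltj glands. It had 270, 210 and 165 counts in NOD/Ltj and 0, 82 and 63 in ICR, which was 5.00, 2.62 and 2.50 CPM in NOD/Ltj and 0, 1.32 and 1.10 CPM in ICR. The strains did not overlap, but ICR 1 held 214 Ighv counts in all, and the log2 fold change of 2.06 ± 1.13 was not called (SE, adjusted p = 0.521). Within the Ighv signal (counts per kilobase of exon, summed over members) Ighv3-6 took 8.15% in NOD 1, 7.32% in NOD 2 and 10.5% in NOD 3. The 95% Wilson intervals, on fragments of 4 counts, were 6.52 to 10.2%, 5.66 to 9.41% and 7.91 to 13.9%. In ICR its share was 0% in ICR 1, 2.35% in ICR 2 and 8.58% in ICR 3, so as a share the strains overlapped. Its nearest relative Ighv3-1, shown above, had 6, 16 and 6 counts in NOD/Ltj and 0, 15 and 2 in ICR.

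Each ICR gland had a different leading segment. In ICR 1 it was the pseudogene Ighv1-14, with 34 counts and 14.8% of the signal (Wilson interval 7.66 to 26.6%). In ICR 2 it was Ighv1-53, with 222 counts and 6.35% (4.95 to 8.12%), and in ICR 3 it was Ighv1-54, with 114 counts and 14.4% (10.2 to 20.0%). Ighv1-14 had 0, 0 and 0 counts in NOD/Ltj and 34, 42 and 6 counts in ICR, or 0.491, 0.678 and 0.105 CPM in ICR. Against the floor of 12 counts per library its mean CPM was at least 2.30-fold lower in NOD/Ltj, though its 6 counts in ICR 3 were under that floor. It did not pass the filter, and every stretch of 150 bases in its reference transcripts was unique to it. Ighv1-53 had 91, 149 and 65 counts in NOD/Ltj and 4, 222 and 0 in ICR, and its log2 fold change was 0.31 ± 1.50 (SE, adjusted p = 0.966). Ighv1-54 had 75, 75 and 23 counts in NOD/Ltj and 0, 4 and 114 in ICR, so it ran from nearly nothing to the lead between 2 glands of 1 strain.

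After Ighv3-6, the members of highest mean CPM in NOD/Ltj were Ighv1-26, Ighv1-9, Ighv9-3, Ighv1-53, Ighv5-17, Ighv1-64, Ighv14-3, Ighv2-2 and Ighv1-54. Ighv1-26 had 184, 205 and 19 counts in NOD/Ltj and 0, 81 and 28 in ICR (log2 fold change 1.80 ± 1.33 SE, adjusted p = 0.667). NOD 3 was low in it, but was highest of the 6 libraries in Ighv1-18, the close relative printed above, which had 52, 31 and 77 counts in NOD/Ltj and 0, 45 and 3 in ICR. Ighv1-9 had 198, 91 and 44 counts in NOD/Ltj and 0, 48 and 18 in ICR (log2 fold change 2.32 ± 1.23 SE, adjusted p = 0.505). Ighv9-3 had 127, 135 and 63 counts in NOD/Ltj and 0, 165 and 9 in ICR, where the ICR 2 value was above every other. The same held for Ighv1-64, with 83, 100 and 30 counts in NOD/Ltj and 0, 190 and 0 in ICR. Ighv5-17, Ighv14-3 and Ighv2-2 were highest in NOD 1, at 145, 109 and 96 counts, and had 2, 0 and 12 counts in ICR 1.

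In ICR the members of highest mean CPM were Ighv5-16, Ighv1-53, Ighv7-3, Ighv1-64, Ighv9-3, Ighv1-42, Ighv3-6, Ighv5-4, Ighv5-17 and Ighv1-55, so 5 of its 10 were also among the 10 of NOD/Ltj. Ighv5-16 had 59, 35 and 0 counts in NOD/Ltj and 15, 216 and 31 in ICR, with a log2 fold change of −1.48 ± 1.42 (SE, adjusted p = 0.756). That sign turned to 0.42 without ICR 2. As a share of the Ighv signal Ighv5-16 did not overlap, at 1.64, 1.12 and 0% in NOD/Ltj and 6.90, 5.71 and 3.89% in ICR. Ighv7-3 had 47, 45 and 19 counts in NOD/Ltj and 14, 184 and 15 in ICR, with a log2 fold change of −1.001 ± 1.04 (SE, adjusted p = 0.781) that turned to 1.30 without ICR 2. Its shares of 1.38, 1.52 and 1.17% in NOD/Ltj lay below those of 6.78, 5.12 and 1.98% in ICR. Both segments thus took a larger share in each ICR gland than in any NOD/Ltj gland. Shares of other members did not overlap the other way. Ighv1-9 took 5.96, 3.16 and 2.80% in NOD/Ltj and 0, 1.37 and 2.44% in ICR. Ighv6-6 took 0.474, 0.581 and 3.81% in NOD/Ltj and 0, 0.337 and 0% in ICR. Ighv1-72, Ighv1-76, Ighv2-6, Ighv14-2, Ighv10-1, Ighv2-5, Ighv1-77 and Ighv1-38 also had larger shares in each NOD/Ltj library than in any ICR library. Ighv1-14 had larger shares in each ICR library. Such shares have no background over all genes, so their number is not a result. Ighv5-16 and Ighv7-3 both had their highest level in ICR 2. Ighv1-42 (14, 68 and 20 counts in NOD/Ltj, 4, 136 and 24 in ICR), Ighv5-4 (26, 87 and 10 counts in NOD/Ltj, 18, 99 and 18 in ICR) and Ighv1-55 (33, 30 and 24 counts in NOD/Ltj, 0, 113 and 15 in ICR) were also highest in ICR 2 and overlapped between the strains.

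**Figure D2:**
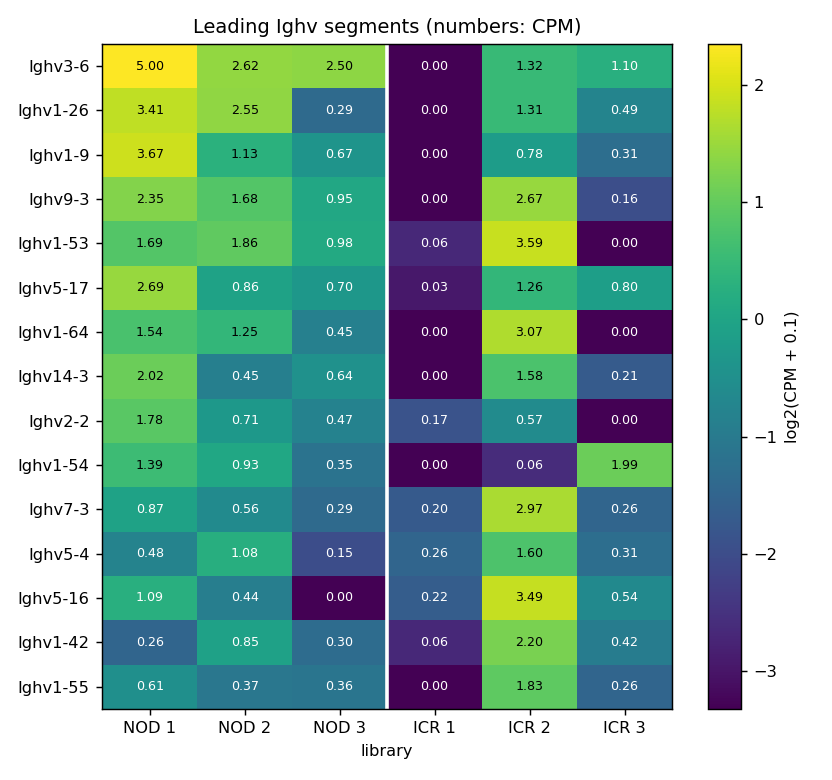
CPM of the members among the 10 highest by mean in NOD/Ltj or in ICR, by library (columns, NOD/Ltj left of the white line) with colour on a log2(CPM + 0.1) scale and the CPM printed in each cell. Ighv3-6 leads NOD/Ltj at 5.00, 2.62 and 2.50 CPM, and most cells of ICR 1 are at or near 0 while those of ICR 2 reach 3.59 CPM.

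The glands differed in how many segments they used. At 12 or more counts there were 60, 58 and 44 segments in NOD/Ltj and 8, 68 and 24 in ICR, in the same order as the Ighv counts of the libraries. With at least 1 count the numbers were 78, 82 and 67 in NOD/Ltj and 22, 83 and 46 in ICR. At an equal depth of 54 fragments, that of ICR 1, the expected number of segments was 32.5 in each of NOD 1, NOD 2 and NOD 3, against 22, 33.0 and 27.7 in ICR. At 194 fragments, that of ICR 3, it was 58.2, 60.0 and 57.5 in NOD/Ltj, against 61.9 in ICR 2 and 46 in ICR 3. ICR 2 therefore used as many segments as the NOD/Ltj glands at the same depth, and the other ICR glands used fewer. Counts were found for 60 members in all 3 NOD/Ltj libraries and 15 in all 3 ICR libraries, 70 being at 0 in ICR 1. There were 2 members at 0 in all of NOD/Ltj, Ighv1-14 and Ighv1-70, and 5 in all of ICR, namely Ighv2-5, Ighv1-77, Ighv1-11, Ighv5-2 and Ighv1-36. Of the 5, Ighv2-5 alone had a mean CPM in NOD/Ltj over the mean floor of the ICR libraries, 0.302 against 0.192. It had 25, 10 and 21 counts in NOD/Ltj, of which the 10 in NOD 2 was under the floor of 12. By those means Ighv2-5 was at least 1.57-fold higher in NOD/Ltj.

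No segment took more than 14.8% of the signal of any gland. The 10 most used segments of each library took 40.8, 42.5 and 42.8% of its Ighv signal in NOD/Ltj and 73.8, 40.8 and 55.1% in ICR. The 5 most used took 27.3, 27.6 and 27.4% in NOD/Ltj and 44.6, 26.6 and 37.9% in ICR. The NOD/Ltj glands were alike in this, while ICR 1 and ICR 3, the libraries with the fewest Ighv counts, were more concentrated. To reach 50% of the signal took 15, 14 and 14 segments in NOD/Ltj and 6, 15 and 9 in ICR. The effective number of segments (inverse Simpson index, the number of equally used segments that would give the same concentration) was 36.2, 35.5 and 32.4 in NOD/Ltj and 14.6, 38.8 and 20.4 in ICR. The part that low counts had in the ICR 1 and ICR 3 values was not tested.

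**Figure D3:**
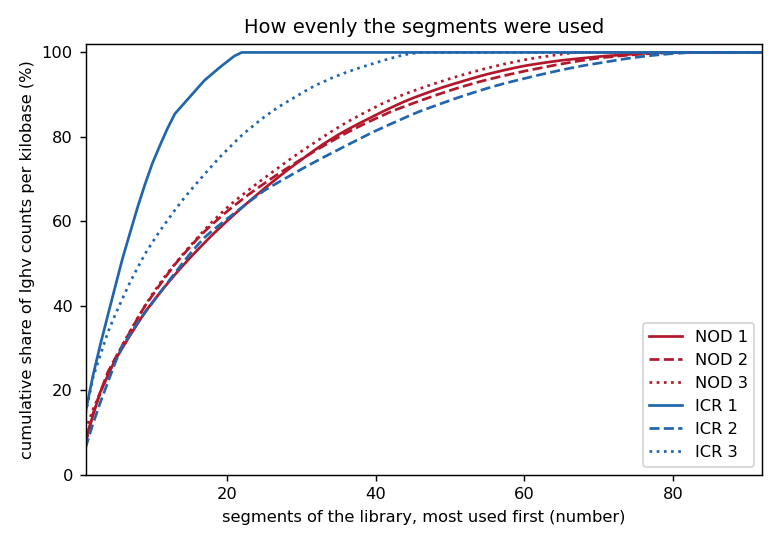
Cumulative share of the Ighv signal (counts per kilobase, in percent) against the number of segments, most used first, with 1 line per library (NOD/Ltj red, ICR blue). The NOD/Ltj lines and ICR 2 run together and reach 40.8 to 42.8% at 10 segments, while ICR 3 reaches 55.1% and ICR 1 73.8%.

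Pairs of NOD/Ltj glands were more alike in their use than pairs of ICR glands. Of the 10 most used segments, pairs of NOD/Ltj libraries had 4 or 5 in common, pairs of ICR libraries 2 or 3, and pairs across the strains 0 to 4. The overlap of use (the smaller of both shares, summed over members) was 63.3 to 68.7% between NOD/Ltj libraries, 22.7 to 44.3% between ICR libraries and 18.0 to 64.3% across the strains. ICR 2 overlapped more with the 3 NOD/Ltj libraries (57.3, 64.3 and 52.7%) than with ICR 1 (29.4%) or ICR 3 (44.3%). ICR 1 and ICR 3 had the fewest Ighv counts, and the part of depth in these values was not tested.

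Family Ighv1, the largest of the 13 families with 49 of the 92 members, held most of the signal in NOD/Ltj. It took 54.3, 50.5 and 51.2% in NOD/Ltj and 35.5, 52.2 and 43.7% in ICR, and the strains overlapped. Family Ighv5 (9 members) took 12.2, 11.6 and 8.68% in NOD/Ltj and 19.3, 17.1 and 16.0% in ICR. Those groups did not overlap, with means of 10.8% ± 1.87 in NOD/Ltj and 17.5% ± 1.71 in ICR (SD, n = 3 each). Without Ighv5-16 they still did not overlap, at 10.7, 10.6 and 8.68% in NOD/Ltj and 13.4, 12.04 and 12.6% in ICR, but the difference shrank to −2.68 percentage points. In counts rather than per kilobase the order was the same (13.0, 12.4 and 9.07% in NOD/Ltj and 21.0, 17.9 and 17.1% in ICR). Ighv5-12 of this family, whose level did not overlap in the other direction, had 27, 23 and 34 counts in NOD/Ltj and 0, 10 and 7 in ICR.

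Families Ighv6 and Ighv7 (2 members each) were the others of the 13 whose shares did not overlap. Ighv6 took 2.02, 3.70 and 4.44% in NOD/Ltj and 0, 1.24 and 0.803% in ICR, from Ighv6-3 and Ighv6-6. In ICR 1 it had 0 counts, and the 95% Wilson interval of that 0 reaches 6.70%, above every NOD/Ltj value. Ighv7 took 2.10, 1.96 and 1.79% in NOD/Ltj and 6.78, 5.12 and 3.03% in ICR. The Wilson intervals of ICR 1 (2.55 to 16.8%) and ICR 3 (1.38 to 6.50%) reached into that of NOD 1 (1.34 to 3.29%). The interval of ICR 2 (3.87 to 6.74%) did not. Most of the Ighv7 share in each library was Ighv7-3. Ighv7-1 took 0.728, 0.437 and 0.615% in NOD/Ltj and 0, 0 and 1.05% in ICR, which overlapped, on 25, 13 and 10 counts in NOD/Ltj and 0, 0 and 8 in ICR. No p is given for these shares, since 3 families of 13 were picked out after their values were seen and an exact permutation test of 3 against 3 cannot go below 0.1.

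The other families overlapped between the strains. Ighv3 took 10.3, 9.14 and 13.3% in NOD/Ltj and 11.9, 4.86 and 15.5% in ICR, and Ighv3-6 made up most of it in the NOD/Ltj libraries and in ICR 3. Ighv2 took 5.28, 8.18 and 9.34% in NOD/Ltj and 14.6, 6.17 and 3.09% in ICR, with Ighv2-9 its most used member by mean share. Ighv9 took 4.34, 6.39 and 4.64% in NOD/Ltj and 4.98, 5.78 and 1.22% in ICR, and Ighv14 3.79, 2.18 and 4.45% in NOD/Ltj and 0, 3.38 and 3.60% in ICR. Ighv8 was at 0 in NOD 3 and took 2.92 and 3.68% in NOD 1 and NOD 2, against 6.83, 2.50 and 10.8% in ICR. Its most used member, Ighv8-8, had 61, 97 and 0 counts in NOD/Ltj and 14, 47 and 21 in ICR. Families Ighv4, Ighv10, Ighv13 and Ighv15 each took under 2% in every library, led by Ighv4-1, Ighv10-3, Ighv13-2 and Ighv15-2.

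**Figure D4:**
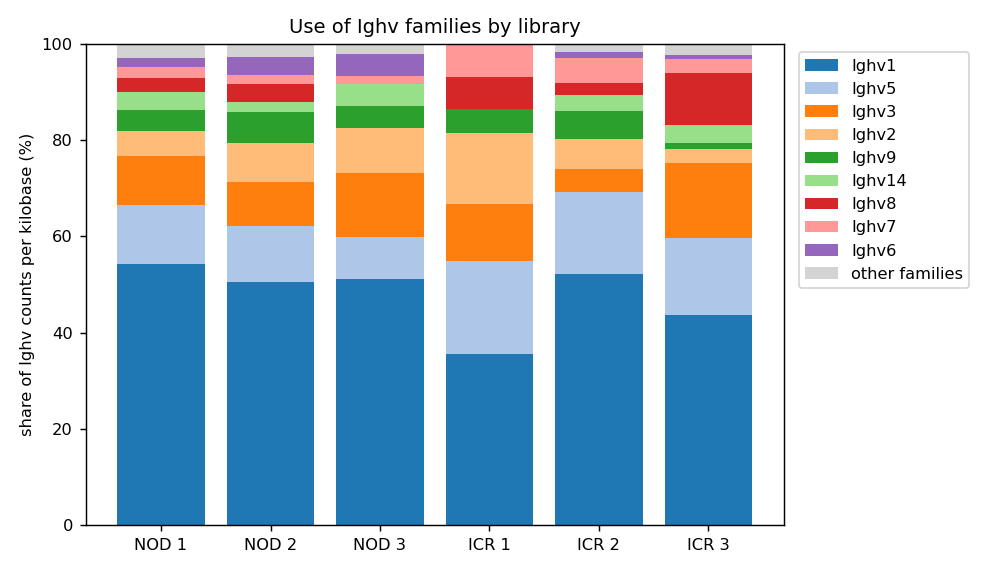
Share of each Ighv family in the Ighv signal (counts per kilobase, in percent) of each library, stacked to 100%, with NOD/Ltj libraries on the left. Family Ighv1 is the largest in every library, and Ighv5 takes 8.68 to 12.2% in NOD/Ltj and 16.0 to 19.3% in ICR.

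The V segments lie in a row, from those nearest the D segments to the most distant, and the members were read in that order. The D-proximal 30 members (Ighv5-2 to Ighv3-5) took 29.2, 31.5 and 31.4% of the signal in NOD/Ltj and 52.7, 38.8 and 30.7% in ICR. The next 31 (Ighv3-6 to Ighv8-5) took 39.7, 39.1 and 40.6% in NOD/Ltj and 30.7, 27.8 and 32.5% in ICR. Those groups did not overlap. Nor did they without the leading segments of the 6 libraries, when the shares were 36.3, 37.4 and 35.8% in NOD/Ltj and 19.2, 27.0 and 30.4% in ICR. The D-distal 31 members (Ighv1-50 to Ighv1-85) took 31.1, 29.3 and 28.0% in NOD/Ltj and 16.6, 33.5 and 36.8% in ICR. Within NOD/Ltj the 3 stretches were used alike from gland to gland (SD 0.734 to 1.52 percentage points), against 2.39 to 11.1 in ICR. The divisions by order were made with these data in view, and no test was run on them.

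**Figure D5:**
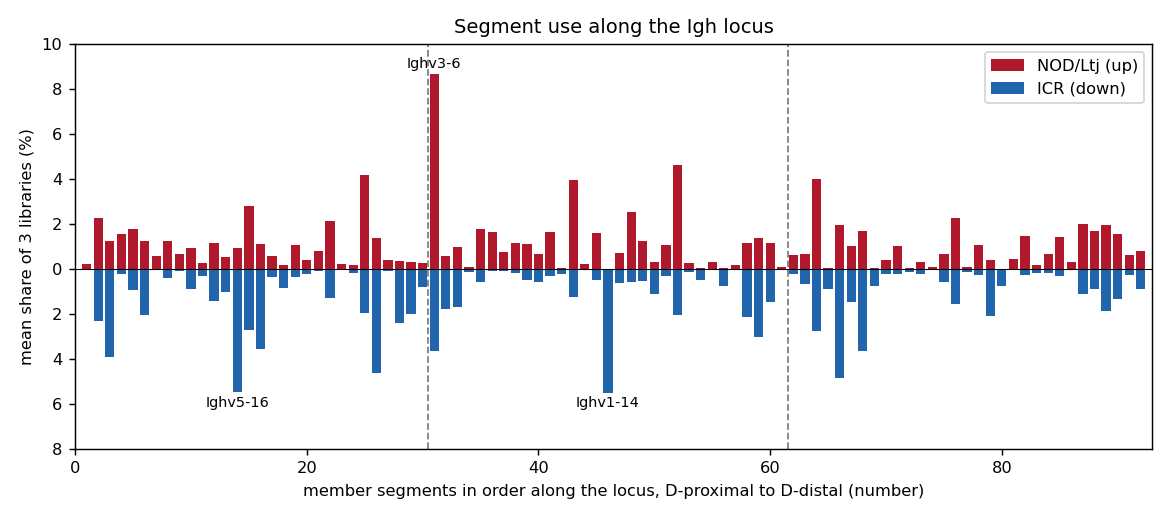
Mean share of the Ighv signal per member over 3 libraries (percent), for NOD/Ltj upward and ICR downward, in order along the locus from the D-proximal end, with dashed lines between groups of 30, 31 and 31 members. Ighv3-6, at a mean of 8.66%, is the tallest bar of NOD/Ltj, while Ighv1-14 and Ighv5-16 are the deepest of ICR, at 5.51 and 5.50%, that of Ighv1-14 resting on 34 counts in ICR 1.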

How the data were processed

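RNA of 3 NOD/Ltj and 3 ICR lacrimal gland samples was sequenced as strand-marked polyadenylated libraries with paired reads of 150 bases, per the labels' protocols. The authors deposited estimated counts per gene as whole numbers without scaling. Tools named in the submitters' processing notes are fastp, StringTie and edgeR. No source used here gives the aligner, the genome build, the counting or its strand setting, so reads of overlapping or antisense genes cannot be told apart. Multiples of 4 made up 30.4 to 31.7% of the values from 1 to 40. In each library more genes had 4 counts than 3 or 5, in NOD 1 1043 against 465 and 337. About 4 counts per fragment were inferred from this. Most low values were not multiples of 4, so the number is approximate. Intervals and floors rest on that step and cover counting error only.

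Symbols came from GENCODE M21 and matched 55141 of 55401 genes, and no member symbol was repeated. The members and the gene lists were chosen with earlier results of these data known. Members named with values were the 10 of highest mean CPM in each strain, the most used of each library and family, those beside the threshold, and any called. The 7 without overlap, their families and the comparison of shares were added after their values were seen. The test was edgeR 4.0.16 in R 4.3.3 (quasi-likelihood, TMM scaling, filterByExpr, two-sided, Benjamini-Hochberg over 18537 genes), planned for plain counts and kept because the values were whole. It was tested on simulated data. Standard errors are the log2 fold change over the root of F. Shares used counts per kilobase of exon (347 to 480 bases per member). Shares between strains got no test. Library pairs differed by chi-square of 34.9 to 343 per degree of freedom, so each counted as 1 sample. Alternatives were other scalings, filters, DESeq2 1.42.0, a replicate block and leaving out each library. V exons were aligned with Biopython 1.88. One of the gene lists is not reported here.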

Additional observations from a re-analysis of the deposited data

How the results depend on the processing

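The count of Ighv segments called was 0 under each of the 11 alternatives, and without each library it was 0 to 0. The counts over all genes moved. DESeq2 called 898 higher and 285 lower, and leaving out 1 library gave 11 to 406 higher and 2 to 118 lower (11 and 2 without NOD 3, 63 and 10 without NOD 2, 112 and 30 without ICR 2, 120 and 29 without ICR 3, 405 and 37 without NOD 1, 406 and 118 without ICR 1). The ratio of the summed Ighv level was 1.16 to 5.08 with 1 library left out, the highest without ICR 2. The difference (NOD/Ltj minus ICR, here and below) in segments used was 20.7 (8 to 38), and that in the share of the top 10 was −14.5 percentage points (−22.4 to −5.87). By family, the difference in percentage points was 8.21 for Ighv1 (4.07 to 12.4), 0.137 for Ighv3 (−2.82 to 2.51), −6.65 for Ighv5 (−7.38 to −5.58), 2.70 for Ighv6 (2.18 to 3.39) and −3.02 for Ighv7 (−4.00 to −2.12). Without the most used members it became 17.4 for Ighv1 and −6.11 for Ighv3, and without Ighv5-16 it became −2.68 for Ighv5, since those members belong to these families. The middle 31 members differed by 9.50 points (8.21 to 10.6), and Ighv per 100 Igha by 0.315 (−0.615 to 1.20). The log2 fold changes of Ighv5-16 (−2.67 to 0.42) and Ighv7-3 (−1.53 to 1.30) turned positive without ICR 2, the library with the most counts of both.

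The labels give same-numbered samples only a number in common. Their deviations from the strain mean correlated at −0.12, −0.149 and 0.072. With means of 3 libraries a strain, such values cannot show whether samples were paired. With the replicate number as a block, 129 genes were higher and 25 lower, and 0 Ighv segments were called. Leaving out libraries for the number used, top shares, order along the locus and Igha ratio, the other settings for that order, and leaving out Ighv5-16 were chosen after seeing the data. The search for the octamer motif in Ighv promoters was not run. Ratios, numbers and shares that rest on ICR 1 (214 Ighv counts) are limited by depth.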
